A study of Bos taurus with 18 samples.

Results

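High-grain feeding was set against forage feeding in the rumen papillae of cows given a supplement that the labels call PHY, by RNA sequencing of whole biopsies. The comparison used 8 of the study's 18 libraries, taken by their labels: 4 with the diet Grain and 4 with the diet Forage, all with the treatment PHY. It was chosen with earlier results of these data known. The study took biopsies from 9 Holstein cows that were not lactating and carried a rumen cannula, 5 of them controls and 4 supplemented. Every cow ate 100% forage first and was then moved to a diet with 65% concentrate, called high grain. The groups are called forage_PHY (n = 4), grain_PHY (n = 4), and, where the unsupplemented cows are set beside them, forage_control (n = 5) and grain_control (n = 5). The labels do not spell out PHY, nor whether its feeding had begun when the forage biopsy was taken. Grain followed forage in all cows, so diet and time cannot be told apart. No label ties a library to a cow and replicate numbers follow the order of deposit, so libraries of the same cows were treated as independent, and p-values measure only the spread between these libraries.

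The rumen papilla is a fold of the forestomach wall covered by a stratified epithelium, with dividing cells at its base and horny cells facing the rumen contents. This epithelium takes up the short-chain fatty acids that rumen microbes release, turns part of the butyrate into ketone bodies, and keeps acid and microbes out through its cell junctions. Grain ferments faster than forage and lowers rumen pH, and papillae of cattle moved to grain are studied for changes in uptake, growth and barrier.

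The libraries carried the markers of that epithelium. The 16 basal-layer genes summed to between 14038 and 17237 CPM in the forage libraries, where CPM is reads per 1000000 reads of the library, after scaling of its size. KRT5, the keratin of basal cells, stood at 4127, 4162, 3729 and 5597 CPM in forage_PHY 1 to 4. It is among the genes of at least 100 CPM, of which 714 were tested. Markers of other cells were present at lower sums on forage. Fibroblast and matrix markers summed to 805 to 5008 CPM, endothelial markers to 312 to 445 CPM and myeloid markers to 201 to 372 CPM. The sums were 65.1 to 77.4 CPM for T and NK cells and 13.5 to 20.3 CPM for B and plasma cells.

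Grain libraries were shallower and held more reads on genes that most tissues do not express. The forage libraries held 32030288, 34471682, 20750313 and 18655841 reads. The grain libraries held 3953060, 10597387, 15474334 and 12477701 reads, every one below the lowest forage library, and their geometric mean was 0.371 times that of the forage libraries (exact permutation p = 0.0286, two-sided, the smallest that 4 against 4 allows). Olfactory receptor genes, 144 by their symbols, serve odour detection in the nose. Their summed CPM, from total reads, was 20.8, 20.9, 32.2 and 22.7 on forage. On grain it was 345, 79.8, 76.0 and 42.1, again with no overlap (4.08-fold higher, exact permutation p = 0.0286, two-sided). Without grain_PHY 1 the ratio was 2.67, and over the 9 of these genes with a read in every library it was 1.96. Without grain_PHY 1 the depth ratio was 0.497. In plain counts these were 667, 721, 668 and 424 reads on forage and 1365, 846, 1176 and 525 on grain. The library with the fewest reads, grain_PHY 1, also had the most genes with at least 10 reads (20697, against 16573 to 18136 in the forage libraries).

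**Figure D1:**
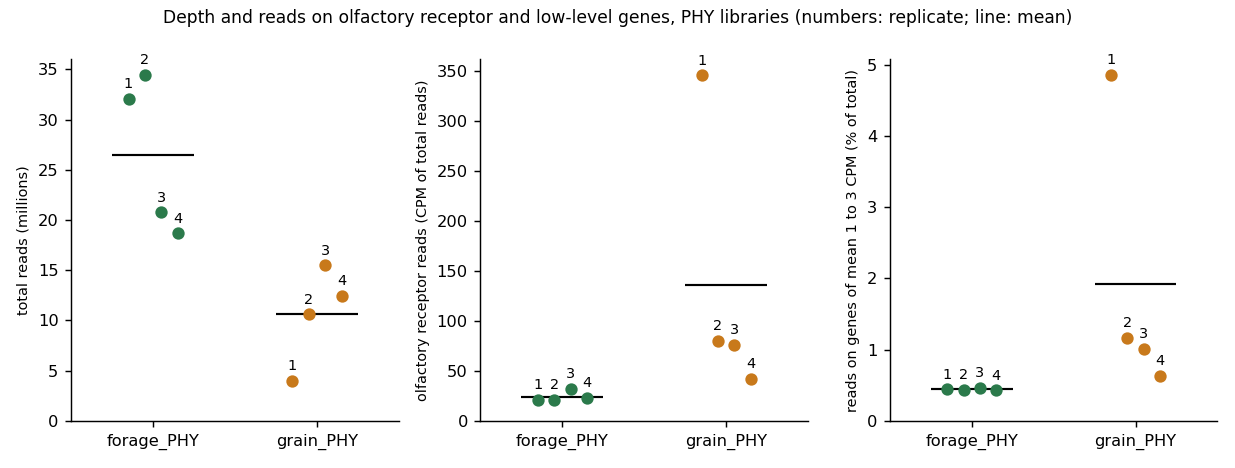
Total reads, summed CPM of 144 olfactory receptor genes and the share of reads on genes with a mean of 1 to 3 CPM (%), each point 1 PHY library with its replicate number and the line the group mean. All 4 grain libraries lie below the forage libraries in depth and above them in both other measures, with grain_PHY 1 at 345 olfactory receptor CPM and 4.86% of its reads on the low genes.

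No gene passed an adjusted p of 0.05 for grain against forage in PHY cows when all 18 libraries shared 1 estimate of the spread (edgeR quasi-likelihood test, 0% of 22202 genes tested). The smallest edgeR adjusted p was 0.0696, and 6553 genes had one under 0.1. Without adjustment 8820 genes (39.7%) had a p under 0.05, 4958 higher on grain (22.3%) and 3862 lower (17.4%). Other tests gave other counts: DESeq2 called 5251 genes (3875 higher, 1376 lower) and limma voom with quality weights 7895 (4476 and 3419). When the 8 PHY libraries alone were fitted with edgeR, 4353 of 18103 genes passed (24%), 3235 higher (17.9%) and 1118 lower (6.18%). That count was 2889 without grain_PHY 1 (15.5% of 18592 genes, 9.57% higher and 5.96% lower), 988 and 1499 without forage_PHY 1 and 2, 2630 without forage_PHY 3, 2844 without grain_PHY 2 and 6691 without grain_PHY 4. Single genes are therefore described by their values in each library, and "passed" below refers to the edgeR fit of the 8 PHY libraries. With the olfactory receptor reads as a covariate, no gene passed in the 18 libraries (663 unadjusted) or in the 8 (1539 unadjusted, smallest edgeR adjusted p 0.201). Diet and olfactory receptor reads do not overlap between the PHY groups, so the 2 cannot be told apart by that fit.

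The direction of a gene's difference went with its level. Genes were put in classes by their mean CPM over the 8 PHY libraries. Below 1 CPM the median log2 fold change, grain over forage, was 1.75 (4877 genes), and from 1 to 3 CPM it was 1.60 (4865 genes). It was 0.10 from 3 to 10 CPM, −0.43 from 10 to 30 CPM, −0.60 from 30 to 100 CPM and −0.70 above that, beside 0.21 for all genes. Values of all 4 grain libraries above all 4 forage libraries were found for 3156 genes (14.2%), and values all below for 3503 (15.8%). Without grain_PHY 1 these counts were 3316 (14.9%) and 3689 (16.6%). Of the 714 genes of at least 100 CPM, 64.6% were lower in every grain library than in every forage library and 0.7% higher. Of the 4865 genes from 1 to 3 CPM, 0.761% were lower in that sense and 31.3% higher. The shares lower and higher were 6.46% and 16.1% from 3 to 10 CPM, 29.8% and 1.39% from 10 to 30 CPM, and 55.6% and 0.413% from 30 to 100 CPM. Passing in the 8 libraries followed level as well: 39.3% of the genes from 1 to 3 CPM and 22.5% of those from 3 to 10 CPM passed as higher, while 11.4% from 10 to 30 CPM, 18.4% from 30 to 100 CPM and 13.2% above that passed as lower. The genes from 1 to 3 CPM took 0.429% to 0.464% of the reads of the forage libraries. On grain they took 4.86%, 1.17%, 1.01% and 0.633% in grain_PHY 1 to 4, and the 4 libraries rank alike in olfactory receptor CPM. Without grain_PHY 1 the class medians ran from 1.34 for the lowest to −0.44 for the highest class. With the olfactory receptor covariate they lay between −0.03 and 0.06.

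**Figure D2:**
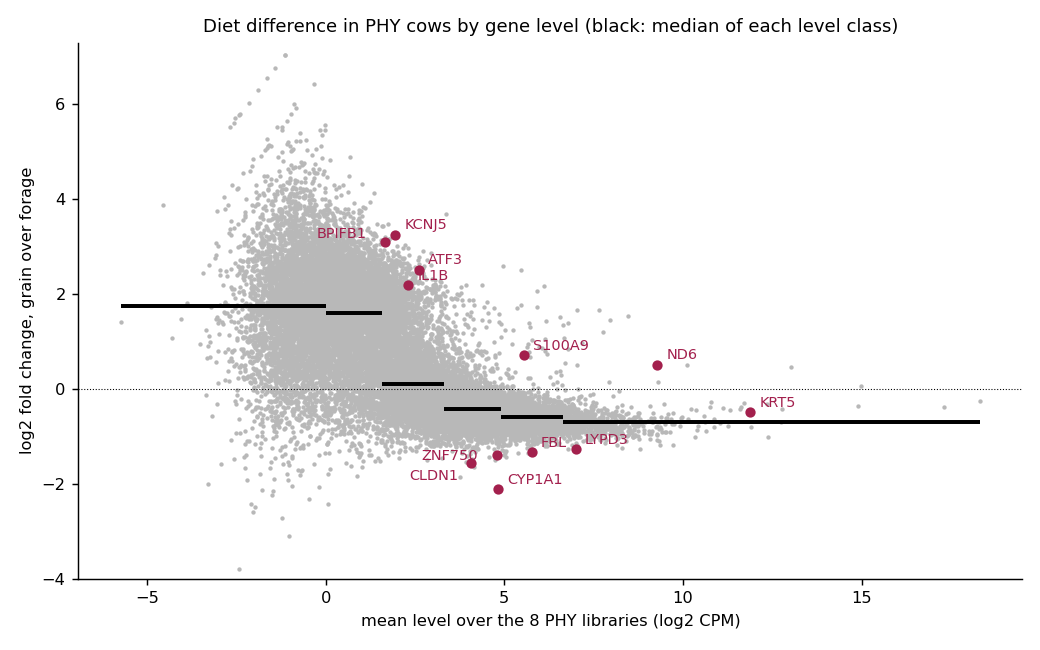
Log2 fold change, grain over forage in PHY cows, against mean level over the 8 libraries (log2 CPM), with 1 grey point per tested gene, black lines at the median of each level class and 12 genes named in the text in red. The class medians step down from 1.75 to −0.70, CYP1A1 lies below its class and ND6 above.

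Scaling set the zero of these differences. The size of each library was multiplied by a scaling factor before CPM were taken. The factors were 0.986, 0.931, 0.871 and 0.733 in forage_PHY 1 to 4. In grain_PHY 1 to 4 they were 2.35, 1.02, 1.08 and 0.816. The high factor of grain_PHY 1 lowers each of its CPM values, and all statements on overlap depend on these factors. DESeq2's size factors moved the median gene by 0.12 upward. A fit of only the 3111 genes of at least 30 CPM took both the scaling and the spread from those genes. It moved their median by 0.63, and 389 of them had an unadjusted p under 0.05 where 1811 had one with all genes. In the 8 PHY libraries fitted on genes of at least 30 CPM, edgeR called 0 of 3200 (471 unadjusted). Below, a value with ± is the log2 fold change of grain over forage in the 18 libraries with its SE, unless it is said to be CPM with its SD. A gene's distance from the median of its level class is given for some genes, and the counts of a gene list stand beside the shares of the class that holds the list's median level or of all genes. When the 8 libraries were thinned at random to 3953060 reads each, edgeR called 888 genes higher (7.06% of 12581) and 167 lower (1.33%). Of the genes described here, 28 passed as higher in the 8 libraries as deposited, of which 16 passed thinned and 10 were then too low to be tested. Of 57 that passed as lower 30 passed thinned. The edgeR adjusted p of the named genes in the 18 libraries was never under 0.0696. Fewer cells of a type and less RNA of a gene per cell cannot be told apart in whole biopsies.

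Genes that seal and anchor the epithelial cells were mostly lower on grain. Of 21 tested tight junction genes 9 were lower in every grain library than in every forage library (42.9%, against 29.8% of all genes from 10 to 30 CPM and 15.8% of all genes) and 2 higher, and the median was −0.56. By the fit of the 8 libraries 7 passed as lower and 1 as higher (36.8% and 5.26%, against 11.4% and 2.53% of all genes from 10 to 30 CPM). Thinned, 2 and 0 passed, and without forage_PHY 1 the counts were 1 and 0. CLDN1, a sealing claudin, stood at 27.8, 28.02, 32.1 and 12.6 CPM on forage and 3.03, 8.26, 8.896 and 13.7 CPM on grain (−1.57 ± 0.41). Forage_PHY 4 lay below the highest grain library, and the 3 remaining forage libraries were above all grain libraries. CLDN1 was the fourth lowest of the 4462 genes in its level class, and it passed (edgeR adjusted p = 0.0133). CLDN4, another claudin of tight epithelia, was at 53.8, 56.00, 40.7 and 44.4 CPM on forage and 10.5, 26.6, 24.7 and 28.4 CPM on grain (−1.11 ± 0.36). The groups did not overlap, and grain_PHY 1 was the lowest. OCLN, the junction protein occludin, averaged 57.7 ± 4.41 CPM on forage and 30.98 ± 5.22 on grain (SD, n = 4 each), and the scaffold TJP3 averaged 51.8 ± 7.595 and 29.2 ± 4.66. All 3 of CLDN4, OCLN and TJP3 passed and had no overlap. Thinned, CLDN1 and TJP3 no longer passed (edgeR adjusted p = 0.0517 and 0.0989).

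Cell adhesion outside the tight junction had the same direction in most members. Of 15 adherens and gap junction genes 10 were lower without overlap (66.7%, against 55.6% of all genes from 30 to 100 CPM) and 0 higher (median −0.77). Of the 15, 14 lay below the median of their level class. By the fit of the 8 libraries 6 passed (42.9%, against 18.4% of all genes from 30 to 100 CPM as lower), 1 of them thinned. Without forage_PHY 1 the count was 0. NECTIN4, an adhesion molecule at adherens junctions, was at 50.5, 46.1, 52.5 and 43.4 CPM on forage and 22.7, 20.04, 23.98 and 32.2 on grain (−0.96 ± 0.27). Every grain library was lower than every forage library. Of 14 desmosome genes, with a median level of 248 CPM, 7 were lower without overlap (50%, against 64.6% of all genes of at least 100 CPM) and 1 higher. The fit of the 8 libraries had the other balance, with 2 higher and 1 lower (14.3% and 7.14%, against 1.26% and 13.2% of that class). Without grain_PHY 1 it called 1 higher and 4 lower. The genes lower without overlap included the plaque protein PKP1 (−1.02 ± 0.36), and the higher one was the desmosomal cadherin DSC1, at 0.792, 1.496, 1.49 and 2.34 CPM on forage and 10.1, 6.77, 4.21 and 3.44 on grain. DSC1 is one of the low genes, whose class median was 0.10. ITGB6, an integrin subunit of epithelia that activates latent TGF-beta, was at 9.57, 12.9, 15.4 and 8.34 CPM on forage and 4.77, 5.102, 5.53 and 6.09 on grain (−1.10 ± 0.25). Its 4 grain values lay close together and below all forage values.

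**Figure D3:**
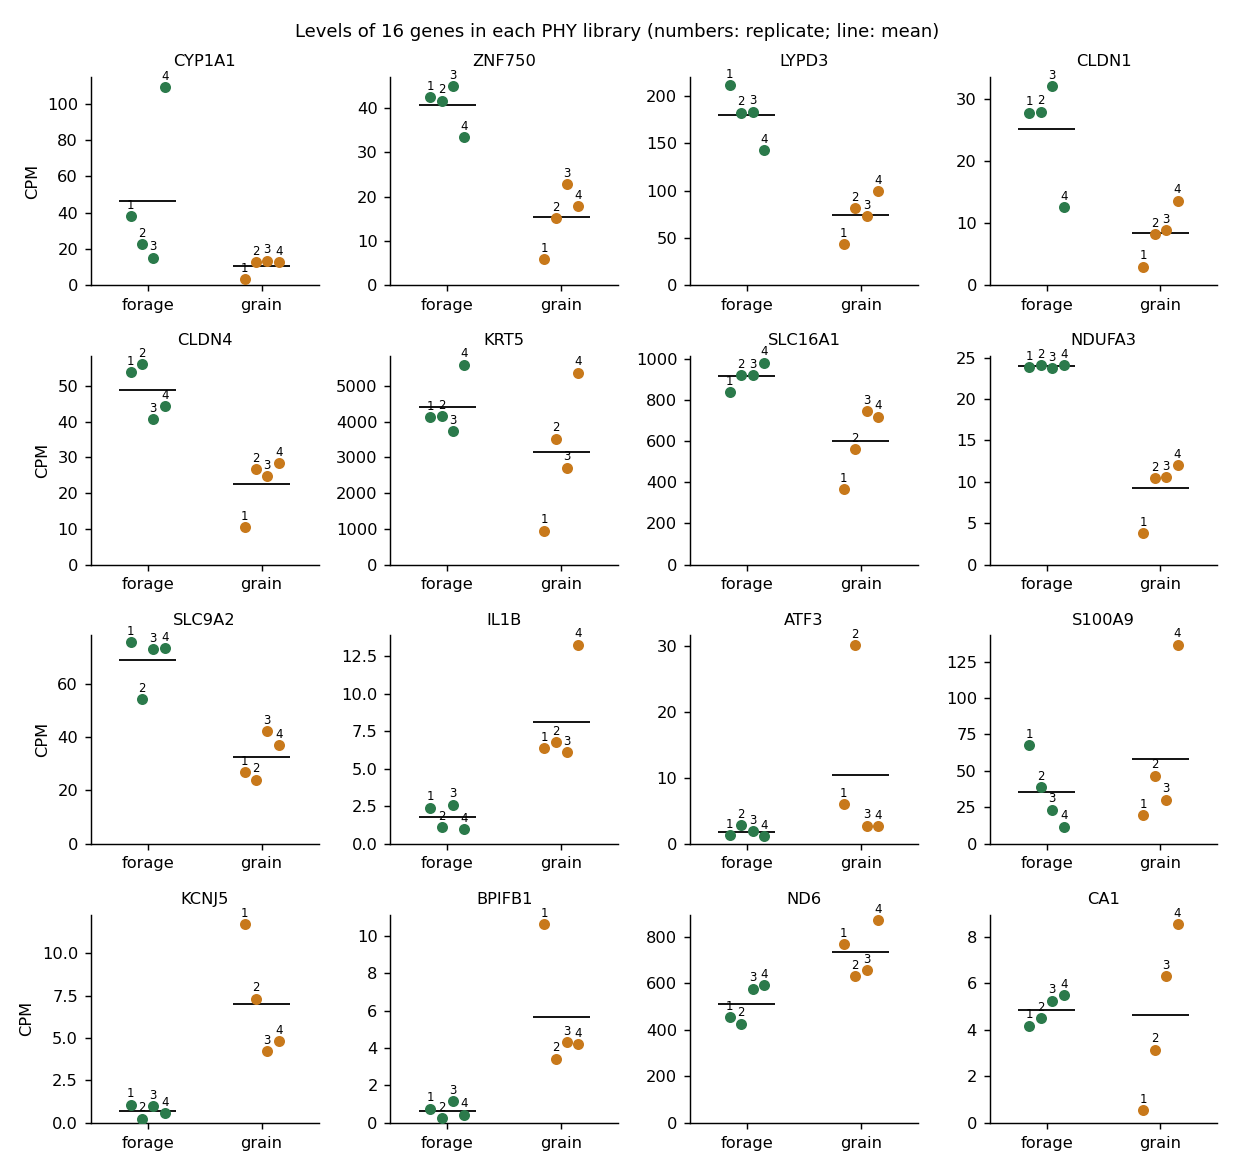
CPM of 16 genes in each PHY library, with the replicate number at each point, the line at the group mean and every axis from 0. ZNF750, LYPD3, NDUFA3 and SLC9A2 have no grain library within the forage range, CA1 and KRT5 overlap, and ATF3 is high in 1 grain library at 30.1 CPM.

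Among the epithelial layers, basal genes and regulators of differentiation, mostly abundant, were lower, and many upper-layer genes, mostly low, were higher. Genes of like level went mostly the same way, and the summed CPM of upper-layer genes was not higher on grain. All 16 basal-layer genes had a negative log2 fold change (median −0.58), and 7 were lower without overlap (43.8%, against 64.6% of all genes of at least 100 CPM). Of the 16, 11 lay above the median of their level class. TP63, the transcription factor of basal cells, was at 427, 480.2, 461 and 472 CPM on forage and 127, 283, 319.7 and 328 on grain (−0.80 ± 0.33). The hemidesmosome genes ITGB4 (−0.74 ± 0.31) and PLEC (−0.89 ± 0.36) had the same pattern, with grain_PHY 1 lowest in each. KRT5 overlapped between diets at 951, 3526, 2712 and 5370.1 CPM on grain (−0.49 ± 0.40), and its sign turned to 0.38 ± 0.27 with the olfactory receptor covariate. None of the 16 passed, and 3 passed without grain_PHY 1.

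ZNF750, a transcription factor needed for keratinocytes to mature, was at 42.5, 41.6, 44.96 and 33.3 CPM on forage and 5.85, 15.2, 22.9 and 17.8 on grain. Its log2 fold change was −1.39 ± 0.36, 0.96 below the median of its level class, with no overlap (edgeR adjusted p = 0.0118 in the 8 libraries). LYPD3, a surface protein of maturing squamous cells, was at 212, 183, 184 and 143 CPM on forage and 43.4, 81.8, 73.6 and 99.95 on grain (−1.27 ± 0.36). It had the second lowest fold change of the 714 genes of at least 100 CPM. HES1, a target of Notch signalling, was at 22.4, 28.7, 25.5 and 26.9 CPM on forage and 8.23, 9.74, 13.3 and 13.9 CPM on grain (−1.19 ± 0.27), also without overlap. All 19 regulators of differentiation tested had negative values (median −0.74), and 15 lay below the median of their level class. Of the 19, 8 were without overlap (42.1%, against 55.6% of all genes from 30 to 100 CPM, which hold their median level of 41.6 CPM). By the fit of the 8 libraries 6 passed (31.6%, against 18.4% of that class as lower), 2 without forage_PHY 1 and 3 thinned.

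Of 36 upper-layer genes 10 were higher without overlap (27.8%) and 2 lower. Of all genes 16.1% from 3 to 10 CPM and 31.3% from 1 to 3 CPM were higher, and the list's median level was 3.62 CPM. The median of the 36 was 1.198, 0.12 above that of their level classes, and 21 lay above the median of their class. CRNN, the cornified-envelope protein cornulin, stood at 1.11, 3.18, 2.27 and 2.56 CPM on forage and 19.6, 6.77, 6.07 and 5.504 on grain (2.05 ± 0.53). The protease of cornification CASP14 went from 0.494 ± 0.271 to 3.04 ± 2.59 CPM (SD, n = 4 each). In both genes grain_PHY 1 was the highest library. Counted by the fit of the 8 libraries, 12 upper-layer genes passed as higher (36.4%, against 22.5% of all genes from 3 to 10 CPM and 39.3% from 1 to 3 CPM). The count was 8 without grain_PHY 1, 3 without forage_PHY 1 and 5 thinned. KRT10, a keratin of spinous cells, was low and overlapped, at 3.01, 4.96, 3.43 and 3.58 CPM on forage and 3.57, 1.58, 4.03 and 3.05 on grain. Summed over the list, upper-layer genes took 12725 to 17114 CPM on forage and 5273 to 13608 CPM on grain.

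Single transporters of acid, bicarbonate and fatty acids were higher, lower or overlapping between the diets. SLC9A2, a sodium-proton exchanger, was at 75.5, 54.3, 72.8 and 73.2 CPM on forage and 26.97, 24.03, 42.2 and 36.9 on grain (−1.08 ± 0.32). No grain library reached the forage range, and it passed (edgeR adjusted p = 0.0137). Its relative SLC9A3 was at 17.3, 16.2, 19.8 and 33.1 CPM on forage and 11.7, 19.2, 26.1 and 21.9 on grain, with overlap (−0.12 ± 0.56). SLC26A3, a chloride-bicarbonate exchanger, was at 24.1, 32.8, 75.8 and 97.8 CPM on forage and 42.2, 27.6, 56.3 and 68.6 CPM on grain and varied more between forage libraries than between diets. Its groups overlapped (−0.24 ± 0.59). SLC26A9, an anion transporter of the same family, was at 0.855, 0.717, 2.49 and 1.32 CPM on forage and 7.47, 4.64, 4.09 and 3.93 on grain (1.91 ± 0.60), higher without overlap. CA1, a carbonic anhydrase, was at 4.18, 4.52, 5.26 and 5.48 CPM on forage and 0.542, 3.15, 6.31 and 8.55 on grain. Its grain libraries straddled the forage range, and its log2 fold change of −0.04 ± 1.01 had an SE larger than itself. Of 33 genes of proton and bicarbonate exchange 4 were higher and 4 lower without overlap (12.1% each, against 14.2% and 15.8% of all genes and 16.1% and 6.46% of those from 3 to 10 CPM; median −0.04). By the fit of the 8 libraries 8 passed as higher and 2 as lower (24.2% and 6.06%, against 22.5% and 1.36% of all genes from 3 to 10 CPM). The counts were 6 and 2 without grain_PHY 1, and thinned 1 and 1.

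SLC16A1, the monocarboxylate carrier that moves short-chain fatty acids, lactate and ketone bodies, was at 839, 921, 920.4 and 982 CPM on forage and 366, 563, 748 and 719 on grain (−0.61 ± 0.31). Its subunit BSG was at 797, 914, 912 and 814 CPM on forage and 230.4, 425, 676 and 584 CPM on grain (−0.84 ± 0.35). Neither overlapped between diets in these scaled CPM, and neither passed. SLC16A1 lay 0.09 above and BSG 0.14 below the median of their level class. SLC14A1, the urea transporter, averaged 264 ± 28.9 CPM on forage and 153 ± 42.3 on grain (SD, n = 4 each). The water channel AQP5 averaged 186 ± 17.1 CPM on forage and 99.9 ± 37.2 CPM on grain. Both were lower in all grain libraries, with log2 fold changes of −0.79 ± 0.34 and −0.90 ± 0.34.

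Ion channels included large differences in low genes. KCNJ5, an inward-rectifying potassium channel, was at 1.08, 0.249, 0.997 and 0.585 CPM on forage and 11.7, 7.33, 4.21 and 4.82 on grain (3.26 ± 0.75). Every grain library was above every forage library, and KCNJ5 passed with and without grain_PHY 1. SCNN1B, a subunit of the epithelial sodium channel, was at 0.824, 0.374, 0.277 and 1.17 CPM on forage and 10.3, 1.299, 3.55 and 2.56 CPM on grain (2.75 ± 0.69). The potassium channel KCNK5, an abundant member, was lower instead, at 120.4, 116, 92.9 and 101.1 CPM on forage and 37.9, 45.6, 72.7 and 70.1 on grain (−0.93 ± 0.26). Of 28 genes of ion channels and the sodium pump 5 were higher and 4 lower without overlap (17.9% and 14.3%). The shares were 14.2% and 15.8% of all genes and 16.1% and 6.46% of those from 3 to 10 CPM. Of the list 7 passed as higher and 4 as lower (25.9% and 14.8%). Of all genes 17.9% and 6.18% did, and of those from 3 to 10 CPM 22.5% and 1.36%. Of 18 genes of short-chain fatty acid transport 2 were higher and 2 lower without overlap (11.1% each, against 31.3% and 0.761% of all genes from 1 to 3 CPM). Of these genes 5 passed as higher and 0 as lower (31.2% higher, against 39.3% of that class). Of 10 genes of urea and water transport 2 and 2 did not overlap (20% each, against 16.1% and 6.46% of all genes from 3 to 10 CPM). Of these genes 2 passed as higher and 0 as lower (25% higher, against 22.5% of that class). Of 25 amino acid transporters 6 and 2 did not overlap (24% and 8%, against the same class), and 5 passed as higher and 0 as lower (20% higher, against 22.5%). Thinned, edgeR called 3 genes of the ion channel list, 1 amino acid transporter and none of the other 2 lists, all higher.

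The pathway from butyrate to ketone bodies was lower in most of its enzymes, by about as much as other genes of the same level. Of 22 genes 12 were lower (54.5%, against 55.6% of all genes from 30 to 100 CPM) and 1 higher without overlap, the median was −0.56, and 11 lay below and 11 above the median of their level class. By the fit of the 8 libraries 1 passed as lower and 2 as higher (4.55% and 9.09%, against 18.4% and 0.909% of all genes from 30 to 100 CPM). Thinned, none passed. ACADS, which starts the oxidation of butyrate, was at 515, 531, 452 and 552 CPM on forage and 119, 241, 329.6 and 345 on grain (−0.99 ± 0.37). BDH1, which turns acetoacetate into beta-hydroxybutyrate, averaged 373 ± 65.9 CPM on forage and 202 ± 79.8 CPM on grain (SD, n = 4 each; −0.88 ± 0.36). Neither gene overlapped between diets, and neither passed (edgeR adjusted p = 0.0516 and 0.081).

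Sterol synthesis genes were lower and stood below their level classes. Of 24 tested, 10 were lower without overlap (41.7%, against 29.8% of all genes from 10 to 30 CPM) and 0 higher. The median was −0.60, 19 lay below the median of their class, and 9 passed (11.4% in that class passed as lower). IDI1, an isomerase of the mevalonate pathway, was at 124, 89.4, 122 and 113 CPM on forage and 32.6, 44.2, 80.1 and 73.1 on grain (−0.96 ± 0.33). SREBF2, the transcription factor that controls the pathway, was at 184, 161, 179 and 159 CPM on forage and 62.8, 78.8, 115 and 119.8 CPM on grain (−0.86 ± 0.28). HMGCS1, the cytosolic enzyme that leads to mevalonate, averaged 91.8 ± 25.2 CPM on forage and 48.4 ± 9.91 CPM on grain (SD, n = 4 each). TMEM97, the sigma-2 receptor and a sterol-responsive gene, was at 26.7, 20.2, 24.1 and 16.6 CPM on forage and 6.17, 9.46, 12.5 and 9.44 on grain (−1.22 ± 0.27). All 4 had no grain library in the forage range. TMEM97 is outside the list of 24 and passed thinned (edgeR adjusted p = 0.0126). Within the list the count of 9 was 8 without grain_PHY 1, 0 without forage_PHY 1 and 0 thinned.

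In fatty acid metabolism the abundant genes named here were lower on grain. SCD, the desaturase that makes oleate, was at 106, 56.00, 82.1 and 49.1 CPM on forage and 39.3, 24.6, 42.3 and 39.4 on grain (−1.01 ± 0.35), with the grain values all under the forage values. ME1, which supplies NADPH for lipid synthesis, averaged 283 ± 28.4 CPM on forage and 133 ± 59.9 CPM on grain (SD, n = 4 each; −1.08 ± 0.39). FABP5, a fatty acid carrier of squamous epithelium, was at 1386, 1221, 1224 and 835 CPM on forage and 295, 509, 585 and 662 on grain (−1.19 ± 0.39). The nuclear receptor PPARD had −1.04 ± 0.31 and also no overlap. Of 32 oxidation and PPAR genes 13 were lower and 2 higher without overlap (40.6% and 6.25%, against 29.8% and 1.39% of all genes from 10 to 30 CPM), with a median of −0.61. Of 19 synthesis genes 6 were lower and 1 higher (31.6% and 5.26%, against the same class). By the fit of the 8 libraries 5 passed as lower and 3 as higher in the first list (15.6% and 9.38%), and 5 and 2 in the second (27.8% and 11.1%). Of all genes from 10 to 30 CPM 11.4% and 2.53% did. Thinned, the counts lower and higher were 2 and 1 in the first list and 0 and 0 in the second. Without forage_PHY 1 the count lower was 0 in both lists. SCD and ME1 no longer passed thinned (edgeR adjusted p = 0.142 and 0.0908).

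Mitochondrial genes of both genomes were mostly lower on grain and differed in their place relative to their level classes. All 61 tested genes of oxidative phosphorylation that lie in the nucleus had negative values (median −0.84). Of these 51 were lower without overlap (83.6%, against 55.6% of all genes from 30 to 100 CPM, near their median level of 54.0 CPM), and 55 lay below the median of their level class. NDUFA3, a subunit of complex I, was at 23.9, 24.1, 23.7 and 24.1 CPM on forage, nearly the same in all 4 libraries, and at 3.79, 10.5, 10.5 and 11.99 on grain (−1.37 ± 0.33). UQCR10, of complex III, was at 83.98, 74.9, 84.6 and 59.97 CPM on forage and 21.2, 19.7, 43.2 and 43.05 on grain (−1.25 ± 0.35). COX14, which helps to assemble complex IV, was at 29.05, 26.4, 26.8 and 21.4 CPM on forage and 4.55, 10.3, 13.2 and 12.9 CPM on grain (−1.33 ± 0.31). The complex I subunit NDUFS7 had −1.10 ± 0.31. Of the 61 genes 29 passed as lower (47.5%, against 18.4% of all genes from 30 to 100 CPM), 36 without grain_PHY 1, 3 without forage_PHY 1 and 9 thinned.

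The 13 protein genes of the mitochondrial genome had a median of −0.37, and 12 of them had negative values. All 13 lay above the median of their level class. In control cows the order of the medians was the other way, at −0.67 for these 13 and −0.46 for the 61 nuclear genes. ND6, a complex I subunit and the one mitochondrial protein gene read from the light strand, was at 455, 428, 577 and 592 CPM on forage and 771, 631, 659 and 874 on grain. All grain values were higher, by 0.52 ± 0.29 on the log2 scale, 1.22 above its level class. In the unsupplemented cows it was at −0.11 ± 0.26. The ND6 gene lies opposite to the other mitochondrial protein genes, and as the strand setting of the counting is not given in the sources used here, reads of both strands may be included. ND6 did not pass with the 8 libraries (edgeR adjusted p = 0.0693) and did without grain_PHY 1 (edgeR adjusted p = 0.0335). Of all tested genes of at least 30 CPM, 15 were higher without overlap, and ND6, FBXO16, PDE4DIP and 5S_rRNA were those that carry a symbol in the deposited table, as seen after the values were known. FBXO16, an F-box protein gene, went from 23.6 ± 8.24 to 97.9 ± 58.9 CPM (SD, n = 4 each).

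Genes of ribosomal proteins and of the tricarboxylic acid cycle were mostly lower without overlap, and 8 of 23 genes of glycolysis were. Of 74 cytosolic ribosomal protein genes 62 were lower without overlap (83.8%, against 64.6% of all genes of at least 100 CPM), none was higher, and the median was −0.89. RPS29 was at 90.7, 86.7, 70.7 and 42.2 CPM on forage and 23.4, 27.6, 39.2 and 23.2 on grain (−1.35 ± 0.42), and RPL28 at 178, 191, 159 and 125 CPM on forage and 41.5, 77.8, 95.6 and 75.3 CPM on grain (−1.17 ± 0.36). Both had no overlap. FBL, the methyltransferase of ribosomal RNA, had −1.34 ± 0.32, from 78.1 ± 14.1 to 30.9 ± 9.61 CPM (SD, n = 4 each). Of the 74 genes 30 passed (40.5%, against 13.2% of all genes of at least 100 CPM as lower), 48 without grain_PHY 1, 1 without forage_PHY 1 and 5 thinned. Of 23 genes of the tricarboxylic acid cycle 17 were lower without overlap (73.9%, against 55.6% of all genes from 30 to 100 CPM) and 1 higher. By the fit of the 8 libraries 6 passed as lower and 2 as higher (26.1% and 8.7%, against 18.4% and 0.909% of that class). Thinned, 0 passed as lower and 1 as higher, and without forage_PHY 1 the count lower was 0. SUCLG1, a subunit of succinyl-CoA ligase, was at −0.96 ± 0.34. It passed as deposited and did not thinned (edgeR adjusted p = 0.0349 and 0.0658). The share of glycolysis genes lower without overlap was 34.8%, under the 55.6% of all genes from 30 to 100 CPM, and 2 were higher. Of the glycolysis genes 2 passed in each direction (8.7% each, against the same class). In this list PGAM1, an abundant mutase, was at −1.04 ± 0.33, and HK2, a low hexokinase, at 2.47, 0.904, 1.55 and 2.56 CPM on forage and 8.56, 8.53, 4.39 and 3.24 on grain (1.73 ± 0.54). Copies of ribosomal protein genes elsewhere in the genome may share reads with them.

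Cell division genes stood close to other genes of their level. Of 41 tested, 38 had negative values, and their median of −0.45 was 0.07 below that of their level classes. Without overlap 6 were lower (14.6%, against 15.8% of all genes and 29.8% of those from 10 to 30 CPM). TYMS, which makes the thymidine nucleotide for replication, was at 21.7, 16.4, 20.9 and 18.5 CPM on forage and 7.04, 7.42, 13.5 and 13.9 on grain (−0.88 ± 0.26). The helicase subunit MCM6 had −0.88 ± 0.32, also without overlap, and these 2 alone of the list passed (4.88%, against 11.4% of all genes from 10 to 30 CPM as lower). TYMS did not without grain_PHY 1 (edgeR adjusted p = 0.0622) and, thinned, TYMS and MCM6 both did not (edgeR adjusted p = 0.239 and 0.123). MKI67, the proliferation marker Ki-67, overlapped at 426, 334, 515 and 308 CPM on forage and 107, 250.1, 327 and 296 on grain (−0.69 ± 0.35). It stood 0.01 above the median of its level class.

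CYP1A1 had the lowest fold change of all 4462 genes in its level class. CYP1A1 oxidises foreign compounds and is switched on by the aryl hydrocarbon receptor. It stood at 38.1, 22.8, 15.2 and 109 CPM on forage and 3.36, 12.7, 13.6 and 12.97 on grain, 4.32-fold lower (−2.11 ± 0.64). Forage libraries ranged widely, forage_PHY 4 was the highest, and all grain libraries lay below the lowest forage library. It passed with the 8 libraries (edgeR adjusted p = 0.0482) and did not without grain_PHY 1 or thinned (edgeR adjusted p = 0.183 and 0.0929). Its relative CYP1B1 was at 15.6, 6.64, 7.31 and 12.7 CPM on forage and 9.86, 5.47, 6.19 and 4.52 CPM on grain, with overlap (−0.70 ± 0.38). UGT1A1, which conjugates such compounds, was at 485, 565, 611 and 425 CPM on forage and 118, 266, 377 and 274 on grain (−1.01 ± 0.36). Of the 12 tested genes of this group 4 were lower and 1 higher without overlap (33.3% and 8.33%, against 29.8% and 1.39% of all genes from 10 to 30 CPM). By the fit of the 8 libraries 1 passed as lower (10%, against 11.4% of that class). Of 22 alcohol and aldehyde dehydrogenases 7 were lower and 5 higher without overlap (31.8% and 22.7%, against the same class and 15.8% and 14.2% of all genes). The members differed in level, and 31.3% of all genes from 1 to 3 CPM were higher. The fit of the 8 libraries had the other balance there, with 5 higher and 1 lower (23.8% and 4.76%, against 17.9% and 6.18% of all genes). Thinned it called none.

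Cytokine genes were low, and more of them were higher than lower on grain. Of 43 tested, 10 were higher and 1 lower without overlap (23.3% higher, against 31.3% of all genes from 1 to 3 CPM). By the fit of the 8 libraries 6 passed as higher (18.2%, against 39.3% of that class). The median of 0.98 lay 0.01 below that of their level classes. IL1B, the inflammatory cytokine interleukin-1 beta, was at 2.41, 1.12, 2.602 and 0.951 CPM on forage and 6.39, 6.77, 6.13 and 13.3 on grain (2.19 ± 0.53). Every grain library was above every forage library. It lay 2.09 above the median of its level class. CXCL8, which draws neutrophils, was at 0.5702, 0.2805, 1.11 and 0.512 CPM on forage and 1.52, 0.928, 2.83 and 4.91 on grain (2.04 ± 0.72), with overlap through grain_PHY 2. CSF3, the granulocyte growth factor, was at 0.0634, 0.436, 0.277 and 0.439 CPM on forage and 3.47, 5.75, 0.541 and 0.688 CPM on grain, near 0 on forage and high in grain_PHY 1 and 2. IL1B passed with and without grain_PHY 1 (edgeR adjusted p = 0.00614 and 0.00772).

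Receptors that sense microbes and the genes behind them went both ways. TLR4, the receptor for bacterial lipopolysaccharide, was at 6.94, 6.42, 3.65 and 5.27 CPM on forage and 1.95, 1.02, 3.43 and 4.03 on grain (−1.09 ± 0.42). Grain_PHY 1 and 2 were the lowest, grain_PHY 4 overlapped with forage, and TLR4 did not pass. NLRP3, the sensor of an inflammasome, was at 2.19, 2.400, 2.66 and 1.097 CPM on forage and 8.99, 8.35, 5.17 and 4.32 CPM on grain (1.67 ± 0.51), higher without overlap. TRIM25, a ubiquitin ligase of antiviral signalling, had −1.09 ± 0.31, and TAPBP, which loads peptides on MHC class I, −0.78 ± 0.22, both lower without overlap. Of 19 genes of pattern recognition 5 were higher and 1 lower without overlap (26.3% and 5.26%, against 16.1% and 6.46% of all genes from 3 to 10 CPM). By the fit of the 8 libraries 5 passed as higher (27.8%, against 22.5% of that class). The counts were 3 and 2 of 35 interferon response genes (8.57% and 5.71%), and 2 and 5 of 24 antigen presentation genes (8.33% and 20.8%), 2 lists with a median level in that class. By the fit of the 8 libraries 2 passed as higher and 1 as lower in the former (5.88% and 2.94%), and 2 and 4 in the latter (8.7% and 17.4%). Of all genes from 3 to 10 CPM 22.5% and 1.36% did. TAPBP no longer passed thinned (edgeR adjusted p = 0.297).

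Mucosal defence genes were mostly low, and about as many of them were higher without overlap as among other genes of their level. Of 41 tested, 14 were higher (34.1%, against 31.3% of all genes from 1 to 3 CPM, which hold their median level of 1.85 CPM) and 1 lower without overlap. Their median was 1.42, 0.41 above that of their level classes. In the fit of the 8 libraries 13 passed as higher (39.4%, against 39.3% of all genes from 1 to 3 CPM). The count was 6 without grain_PHY 1, 2 without forage_PHY 1 and 4 thinned. BPIFB1, a secreted protein of airway and oral lining, was at 0.7603, 0.249, 1.16 and 0.439 CPM on forage and 10.6, 3.43, 4.33 and 4.23 on grain (3.10 ± 0.75). MUC4, a membrane mucin, was at 1.39, 0.997, 2.44 and 1.54 CPM on forage and 12.3, 8.07, 5.71 and 5.31 on grain (2.31 ± 0.70). In both, grain_PHY 1 was the highest and no grain library fell in the forage range. AZGP1, a secreted glycoprotein, overlapped at 6.87, 6.05, 13.9 and 9.14 CPM on forage and 8.23, 8.07, 13.5 and 12.5 CPM on grain (0.24 ± 0.33). S100A9, a calcium-binding protein of neutrophils and stressed epithelium, was at 67.7, 38.6, 23.4 and 11.7 CPM on forage and 19.7, 46.8, 30.4 and 137 on grain. It overlapped, and its 0.72 ± 0.72 turned to −0.15 without grain_PHY 4. S100A11, another member of that family, was lower without overlap (−1.02 ± 0.38). Of 12 S100 genes tested 2 were lower and 0 higher without overlap (16.7% lower, against 55.6% of all genes from 30 to 100 CPM).

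The heat shock, antioxidant and clock groups were lower without overlap in shares near those of their level classes. The share of the IGF group was under that of its class, and the immediate early genes had a positive median. ATF3, a transcription factor induced by stress, was at 1.27, 2.805, 1.88 and 1.17 CPM on forage and 6.07, 30.1, 2.77 and 2.65 on grain (2.52 ± 1.004), with the high value in grain_PHY 2 alone. MCL1, a survival factor that turns over quickly, was at 135, 149, 127 and 95.2 CPM on forage and 61.4, 71.2, 78.4 and 82.9 CPM on grain (−0.79 ± 0.28), lower without overlap. The 29 immediate early genes had a median of 0.54, 0.31 above that of their level classes. Without overlap 1 was higher and 3 lower (3.45% and 10.3%, against 14.2% and 15.8% of all genes). By the fit of the 8 libraries 8 passed as higher and 1 as lower (27.6% and 3.45%). The shares were 17.9% and 6.18% of all genes, and 2.53% and 11.4% of those from 10 to 30 CPM. Without grain_PHY 1 the counts in this list were 2 and 1, and thinned 4 and 0. Of the clock genes, HLF had −0.83 ± 0.28 and BHLHE40 −0.89 ± 0.32, and 6 of 17 in the group were lower without overlap (35.3%, against 29.8% of all genes from 10 to 30 CPM). These 2 alone of the group passed (11.8%, against 11.4% of that class as lower), and neither did thinned. HSF1, the factor of the heat shock response, had −0.74 ± 0.26, and FTL, the ferritin light chain, −1.02 ± 0.30. Of 30 genes of the unfolded protein and heat shock responses 16 were lower and 0 higher without overlap (53.3% lower), and 2 passed (6.67%). Of 39 antioxidant and iron genes 20 were lower and 0 higher (51.3% lower), and 6 passed (15.8%). The share of all genes from 30 to 100 CPM, near the median level of both lists, was 55.6%, and 18.4% passed as lower. FOXO1, which insulin signalling restrains, was at −0.74 ± 0.20, and ERBB2, a receptor of the EGF family, at −0.84 ± 0.26. IGFBP5, which binds insulin-like growth factors, overlapped at 452, 582, 434 and 461 CPM on forage and 110.5, 269, 416 and 451 on grain, where grain_PHY 1 was the lowest. Of 20 genes of the IGF axis 4 were lower and 0 higher without overlap (20% lower, against 29.8% of all genes from 10 to 30 CPM). Of these 1 passed as lower (5%, against 11.4% of that class). Of 18 of the EGF axis 3 were lower and 1 higher (16.7% and 5.56%, against 15.8% and 14.2% of all genes and 6.46% and 16.1% of those from 3 to 10 CPM). In the EGF list 1 passed as higher and 0 as lower (5.88% higher, against 22.5% of all genes from 3 to 10 CPM).

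Markers of immune, red blood and nerve cells, mostly low genes, had positive medians, and olfactory receptor reads were higher in the same libraries. The 17 tested B and plasma cell markers had a median of 1.93, 9 were higher without overlap (52.9%, against 31.3% of all genes from 1 to 3 CPM) and 0 lower, and their sum went from 13.5 to 20.3 CPM on forage to 27.2 to 83.4 on grain. The 34 T and NK cell markers had a median of 0.98 with 7 higher without overlap (20.6%, below the 31.3% of the same class), and the sum on grain was 77.4 to 187 CPM. The 28 myeloid markers, with a median level of 3.29 CPM, had a median of 0.75. Of these 28 markers 9 were higher (32.1%, against 16.1% of all genes from 3 to 10 CPM and 31.3% from 1 to 3 CPM). Their sum overlapped, at 372, 334, 309.9 and 201 CPM in forage_PHY 1 to 4 and 249.7, 354, 313 and 509 CPM in grain_PHY 1 to 4. The 13 red cell markers had a median of 1.91 with 5 higher (38.5%, against 15.9% of all genes below 1 CPM and 31.3% from 1 to 3 CPM). The 14 nerve and glia markers had a median of 1.87 with 6 higher (42.9%, against 31.3% from 1 to 3 CPM). CD8A, of cytotoxic T cells, was at 0.253, 0.717, 0.886 and 0.731 CPM on forage and 4.98, 6.401, 3.67 and 0.983 on grain (2.63 ± 0.70). FCER2, of B cells, was at 1.08, 1.28, 1.88 and 1.54 CPM on forage and 9.96, 5.102, 3.85 and 3.24 CPM on grain, and the myeloid integrin ITGAM at 2.12, 1.37, 2.21 and 1.76 CPM on forage and 16.5, 5.01, 6.67 and 5.799 CPM on grain. GFAP, of glia, was at 0.729, 0.374, 1.49 and 0.878 CPM on forage and 11.2, 6.86, 4.15 and 3.93 on grain, and MYH7, a myosin of slow and heart muscle, at 1.11, 0.966, 1.55 and 1.97 CPM on forage and 17.4, 4.27, 6.19 and 4.23 CPM on grain. In all of these but CD8A the highest library was grain_PHY 1. With the olfactory receptor covariate the medians were −0.02 for B and plasma cells, −0.21 for T and NK cells, 0.37 for myeloid cells, −0.002 for red cells and 0.05 for nerve and glia. None of the marker genes in the table was at 0 in every PHY library, and the part of other cells in the differences above was not tested.

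Fibroblast and matrix markers overlapped between the diets, and forage_PHY 3 was low in them. The 27 tested had a median of −0.17, with 0 higher and 0 lower without overlap where 64.6% of all genes of at least 100 CPM were lower, and 26 of them lay above the median of their level class. Their sum was 5008, 4902, 805 and 3058 CPM in forage_PHY 1 to 4. In grain_PHY 1 to 4 it was 1265, 3871, 2819 and 4172 CPM. The sum in forage_PHY 3 lay below every grain library, which bears on the count lower without overlap. Endothelial markers had a median of −0.29 (19 tested, 1 higher and 1 lower without overlap) and summed to 312 to 445 CPM on forage and 253 to 343 on grain. Muscle markers had a median of −0.10, and 4 of 18 tested were higher without overlap (22.2%). Their median level was 12.2 CPM, and 1.39% of all genes from 10 to 30 CPM were higher. The members differed in level, with MYH7 averaging 1.40 CPM on forage and 8.03 CPM on grain. Of all genes 16.1% were higher from 3 to 10 CPM and 31.3% from 1 to 3 CPM. The summed muscle markers were lowest in forage_PHY 3, at 117 CPM.

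**Figure D4:**
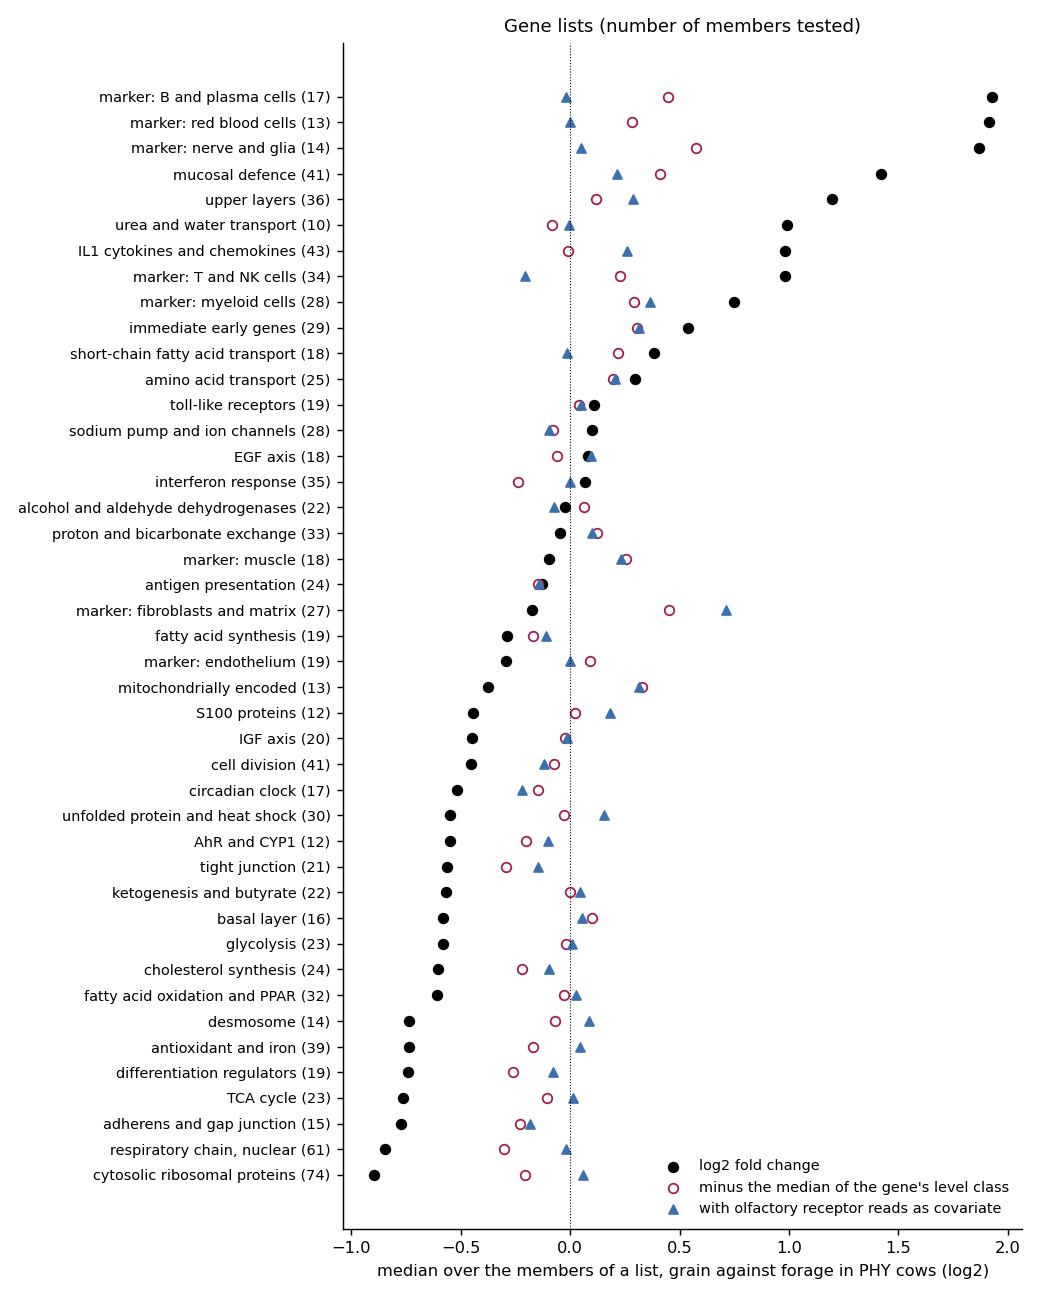
Median log2 fold change, grain over forage in PHY cows, of the tested members of 43 gene lists: as fitted (black), after subtracting the median of each gene's level class (open), and with olfactory receptor reads as a covariate (blue). The black points run from −0.89 for ribosomal proteins to 1.93 for B and plasma cell markers, and both other sets lie nearer to 0 in these 2 lists.

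Among genes that carry a symbol and average 5 CPM or more on one of the diets, the 10 of smallest p in each direction held genes of many functions. The lowest p, 9.1e-06 before adjustment, was that of MEX3D, an RNA-binding protein, at 18.9, 23.4, 17.3 and 16.8 CPM on forage and 9.53, 6.49, 8.24 and 8.85 on grain (−1.21 ± 0.22). MINDY1, a deubiquitinase (−1.05 ± 0.21), PAXX, of DNA end joining (−1.14 ± 0.25), and GNA13, a G protein subunit (−1.30 ± 0.30), were among the others, as were ITGB6, HES1, COX14 and TMEM97, given above. The membrane protease TMPRSS13 was at −1.06 ± 0.24 and the actin nucleator SPIRE2 at −1.05 ± 0.24. All of these were lower without overlap and passed with and without grain_PHY 1. Thinned, MINDY1, PAXX, SPIRE2 and ITGB6 no longer passed (edgeR adjusted p = 0.111, 0.0787, 0.104 and 0.119). On the other side stood PHACTR1, a regulator of actin, at 1.01, 1.28, 1.61 and 1.39 CPM on forage and 11.7, 5.75, 6.43 and 4.72 on grain (2.43 ± 0.53), and the growth factor TGFB3 at 1.77, 1.43, 2.05 and 1.02 CPM on forage and 7.799, 8.999, 4.27 and 6.58 CPM on grain (2.13 ± 0.47). RINL was at 1.61 ± 0.36, CNBD2 at 2.97 ± 0.68, EPS8L3 at 3.04 ± 0.70, the amino acid transporter SLC7A8 at 2.56 ± 0.59, TIAM2 at 1.97 ± 0.46 and SRGAP3 at 1.76 ± 0.41. They too had no overlap and passed in both fits, and CNBD2, EPS8L3 and SLC7A8 were too low to be tested thinned. KCNJ5, given above, was also among the higher genes.

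Among genes of at least 30 CPM in both groups, the lowest p belonged to FBL, given above. TOB2, a brake on cell growth, was at 106, 119, 90.5 and 76.1 CPM on forage and 24.4, 35.1, 48.99 and 66.05 on grain (−1.16 ± 0.30). The corepressor scaffolds SIN3A (−0.94 ± 0.24) and GATAD2A (−0.98 ± 0.26) and the elongation factor subunit CTR9 (−0.78 ± 0.21) were lower too. So were DHRS4, a reductase of retinoids (−1.09 ± 0.29), ETHE1, which clears sulfide in mitochondria (−1.13 ± 0.30), and CAPNS1, the small calpain subunit (−1.08 ± 0.29). ST6GALNAC2, which adds sialic acid to O-linked sugars, was at 184, 189, 173 and 143 CPM on forage and 44.9, 77.7, 94.6 and 78.5 on grain (−1.22 ± 0.33). IMPA2, an inositol phosphatase, had −1.13 ± 0.31. All 10 were lower without overlap and passed, and 8 passed thinned, where CTR9 and DHRS4 did not (edgeR adjusted p = 0.214 and 0.0668). Of the 10 genes of smallest p in the higher direction at this level, ND6 alone did not overlap. S100A9 is described above, and ELN, HMCN1, COL5A3, HMCN2, H4C8, KRT78, ABCC5 and DROSHA overlapped between the diets.

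Most genes had a diet difference of the same sign in the unsupplemented cows, and the median size was larger in the PHY cows. Over 22202 genes 86.5% had the same sign in both arms, which share no library, and the median absolute log2 fold change was 0.75 in PHY cows and 0.43 in control cows. Olfactory receptor reads moved the same way in control cows, from 16.3 to 65.0 CPM on forage and from 32.9 to 169 CPM on grain, with overlap, and their part in this likeness was not tested. LYPD3 was at −0.92 ± 0.32 in control cows, ZNF750 at −0.99 ± 0.32, SLC9A2 at −0.89 ± 0.28 and CYP1A1 at −2.52 ± 0.58. CLDN1 was at −0.18 ± 0.35, ITGB6 at −0.08 ± 0.22, TLR4 at 0.05 ± 0.37 and SCD at −0.20 ± 0.31. In control cows edgeR called 0 genes as well (2518 unadjusted; 0 by DESeq2 and 0 by limma voom).

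**Figure D5:**
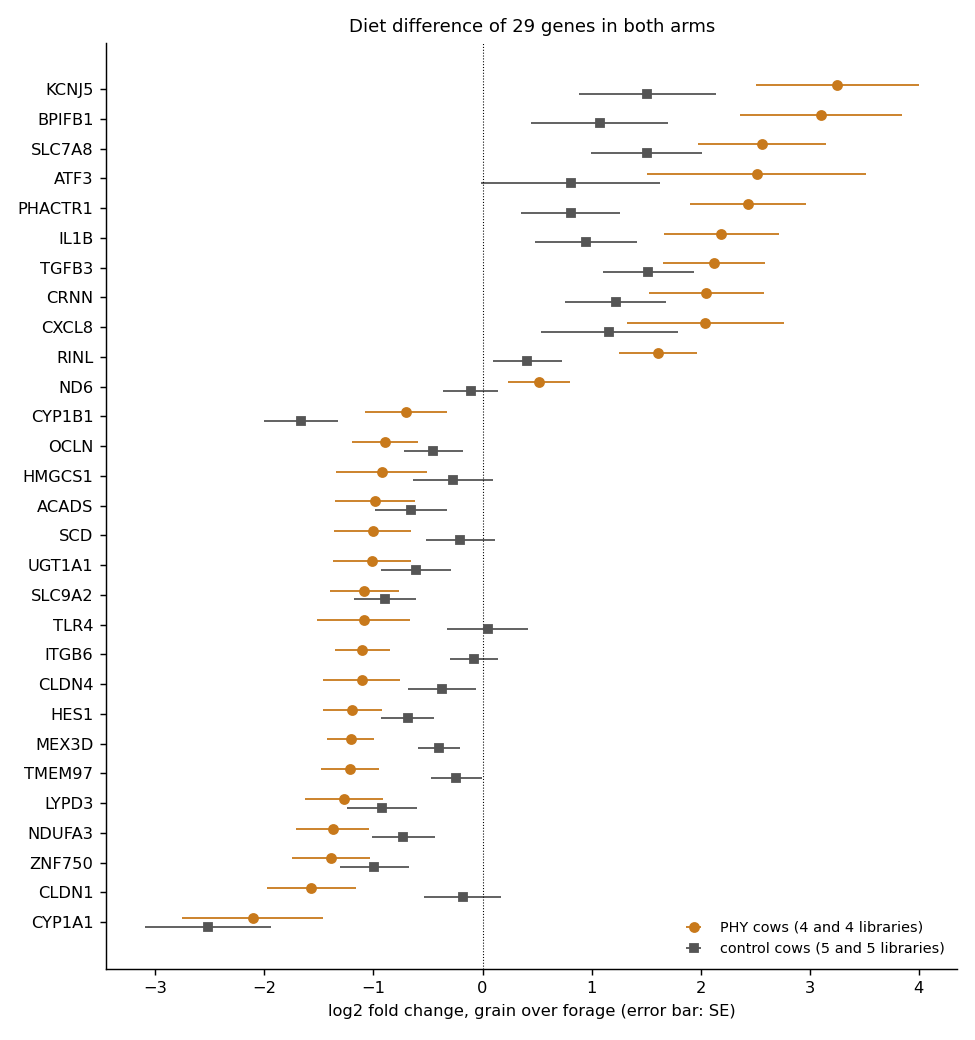
Log2 fold change, grain over forage, with its SE for 29 genes in PHY cows (orange circles, 4 and 4 libraries) and control cows (grey squares, 5 and 5 libraries). CYP1A1 is low in both arms at −2.11 and −2.52, while CLDN1, ITGB6 and TLR4 are near 0 in control cows.

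The test of whether the diet difference itself differed between PHY and control cows called 0 of 22202 genes (edgeR, smallest adjusted p 0.954, 442 unadjusted; 0 by DESeq2 and 0 by limma voom). ERI3, an exonuclease family member, had the smallest p of the genes named by rule: it went from 11.2 ± 0.9904 to 5.59 ± 2.45 CPM in PHY cows (SD, n = 4 each) and from 10.02 ± 0.358 to 10.5 ± 1.17 in control cows (n = 5 each), a difference of −1.07 ± 0.33 in log2 fold change. TWSG1, which binds bone morphogenetic proteins, differed by −1.13 ± 0.37 and MIS18A, of the centromere, by −1.39 ± 0.45. In the other direction AGBL5, a tubulin deglutamylase, differed by 0.80 ± 0.28, IFT172, of ciliary transport, by 0.99 ± 0.36 and TMEM145 by 1.13 ± 0.41. CLDN1 differed by −1.39 ± 0.54 and CYP1B1 by 0.97 ± 0.50. All of these had an edgeR adjusted p of 0.954, so a difference between arms was not detectable for any of them.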

How the data were processed

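RNA-seq of rumen papilla biopsies was deposited as a table of read counts per gene for 18 libraries, in which the authors' counts are whole numbers and not normalized. A second deposited table holds normalized signal, the same counts divided by 1 size factor per library (checked to a relative tolerance of 0.001), and was not used for tests. Per the labels' protocols, total RNA was extracted with a NucleoSpin miRNA kit and libraries were made from 10 ng with a SMART Seq Stranded Total RNA-Seq kit. Per the submitters' processing notes, bcl2fastq 2.20 and DESeq2 were used and the build was bosTau9. Aligner, counter, annotation and the strand setting of the counting: not given in the sources used here.

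The table lists 27270 genes, of which 7506 carry no symbol and 279 had 0 reads in all 18 libraries. Counts were tested with edgeR 4.0.16 and limma 3.58.1 in R 4.3.3: filterByExpr by group, TMM scaling, and the robust quasi-likelihood F test on 18 libraries in 4 groups of diet by treatment, with Benjamini-Hochberg adjusted p under 0.05 over 22202 genes as the call. SEs are the absolute log2 fold change over the square root of F. CPM used edgeR's effective library sizes, and olfactory receptor CPM used total reads. Totals and olfactory receptor reads were compared by a two-sided exact permutation test on log2 values over the 8 PHY libraries. Total reads per library, 3953060 to 34471682, limit the precision of low genes.

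Alternatives were DESeq2 1.42.0 and its size factors, limma voom with sample quality weights, other filters on low counts, the groups compared alone, a minimum fold change, an olfactory receptor covariate, thinning every library to 3953060 reads, and leaving out each PHY library. The combinations of the 8 PHY libraries with another filter, covariate, depth, scaling or a library left out were chosen after seeing the data. The pipeline was tested on simulated data.

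The libraries and the 43 gene lists were chosen with earlier results of these data known. Since no gene passed, the genes named were the 10 of smallest p in each direction that carry a symbol and average 5 CPM or more on one of the diets, and again those that average 30 CPM or more on both. To these come up to 4 members of each list with the smallest p, a set of genes fixed by name, and for the difference of responses 3 genes of smallest p in either direction. Only some list members are printed, and that choice was made after their values were seen, as was that of BSG, ACADS and the remaining listed genes outside the rule. AHRR and MT1E stand under more than 1 identifier and are not printed, and a few further results are not reported here. No set test was run, and no sequence was used.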

Additional observations from a re-analysis of the deposited data

Results flagged for a closer look

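Within each group of 4 PHY libraries, 16 of 228 sets of values had a highest or lowest library whose gap to the nearest of the other 3 exceeded Dixon's 95% critical share of the range. Chance gives about 1 in 20. Of the 16, 5 were in forage and 11 in grain libraries, 6 of the latter in grain_PHY 1.

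In grain_PHY 1 olfactory receptor genes were high at 345 CPM, against 42.1 to 79.8 in the other grain libraries. CRNN was high there at 19.6 CPM, BPIFB1 at 10.6 CPM, ITGAM at 16.5 CPM and MYH7 at 17.4 CPM, and CYP1A1 was low at 3.36 CPM. In grain_PHY 2 ATF3 was high at 30.1 CPM and SCD low at 24.6 CPM. In grain_PHY 3 AGBL5 was low at 8.54 CPM. In grain_PHY 4 IL1B was high at 13.3 CPM and DHRS4 at 43.6 CPM.

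Among forage libraries, ETHE1 (193 CPM) and PLEC (2249 CPM) were high in forage_PHY 1. SLC9A2 (54.3 CPM) was low in forage_PHY 2. Olfactory receptor genes were high in forage_PHY 3 at 32.2 CPM, against 20.8 to 22.7 in the other 3. IMPA2 was low in forage_PHY 4 at 97.3 CPM.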

How the results depend on the processing

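No gene was called for grain against forage in PHY cows with edgeR on all 18 libraries, and the count stayed 0 with other filters, DESeq2 size factors, a minimum fold change, the olfactory receptor covariate, thinning and each PHY library left out. It was 5251 with DESeq2, 7895 with limma voom and 4353 with the 8 PHY libraries alone, and in these 8 it was 1055 thinned and 4603 with DESeq2 size factors. With forage_PHY 1 to 4 left out of the 8 in turn it was 988, 1499, 2630 and 4042, and with grain_PHY 1 to 4 left out 2889, 2844, 4199 and 6691. The cause was not tested. Without any forage library, or for depth without grain_PHY 1, the exact permutation p for depth and olfactory receptor CPM was 0.0571. Over all libraries left out the depth ratio lay between 0.315 and 0.497 and the olfactory receptor ratio between 2.67 and 5.39. No paired analysis was possible because no label links a library to its cow and the replicate numbers follow the order of deposit. Counts for control cows and for the difference of responses stayed 0 under all alternatives run. The shallow grain libraries limit what can be said of low genes.

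Some log2 fold changes changed sign. With the olfactory receptor covariate KRT5 was at 0.38, SLC9A3 0.95, SLC26A3 0.68, CA1 0.14, SLC16A1 0.025, BHLHE40 0.00047 and IGFBP5 0.14. With that covariate in the 8 libraries PLEC was at 0.14, TP63 0.081, ITGB4 0.24, KRT5 0.91, MKI67 0.15, ACADS 0.0092, BDH1 0.026, SLC9A3 0.52, CA1 1.81, SLC16A1 0.029, BSG 0.017 and IGFBP5 0.62. On genes of at least 30 CPM KRT5 was at 0.029, SLC26A3 0.41, CA1 0.49 and SLC16A1 0.014, and in the 8 libraries KRT5 was at 0.029, SLC26A3 0.41 and SLC16A1 0.011. Thinned, SLC9A3 was at 0.19 and KRT10 0.027, and in the 8 thinned libraries SLC9A3 was at 0.15, SLC26A3 0.12, CA1 0.59 and KRT10 0.37. By limma voom SLC9A3 was at 0.15 and CA1 0.17, and in the 8 libraries alone they were at 0.034 and 0.074. CA1 was at 0.051 with DESeq2 size factors, 0.041 with them in the 8, 0.011 with the stricter filter and 0.019 with DESeq2. With 1 library left out of the 18, S100A9 ranged from −0.15 to 1.23, SLC9A3 from −0.30 to 0.14, SLC26A3 from −0.51 to 0.13 and CA1 from −0.49 to 0.36. With 1 left out of the 8, S100A9 was at −0.00913 without grain_PHY 4, and KRT10 at 0.061 without grain_PHY 2. SLC9A3 was at 0.28 without forage_PHY 4 and at 0.18 and 0.013 without grain_PHY 1 and 2. SLC26A3 was at 0.027 and 0.26 without forage_PHY 3 and 4 and at 0.073 without grain_PHY 2. CA1 was at 0.078 and 0.11 without forage_PHY 3 and 4 and at 0.42 and 0.19 without grain_PHY 1 and 2.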
